A study of Mus musculus with 18 samples.

Results

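The following 10 genes, which write, copy and remove DNA methylation or methylate histone H3, were described in CD8+ T cells of OT-I mice: Dnmt1, Uhrf1, Dnmt3a, Dnmt3b, Tet1, Tet2, Tet3, Ezh2, Suz12 and Eed. They were taken by name. GENCODE M21 gave each name 1 Ensembl gene, so the 10 genes of 55536 in the count table and their 100 transcripts of 141862 were analysed. OT-I mice carry a transgenic T cell receptor that recognises SIINFEKL, a peptide of ovalbumin, and the cells came from spleen and lymph nodes. The 18 RNA-seq libraries fell into 3 groups, all labelled OT-I. Of these, 8 are the naive libraries (day 0). Another 8 are the control libraries; these cells had received a scrambled sequence and were taken 4 days after SIINFEKL with anti-OX40/anti-41BB costimulation. The other 2, called knockout after their label (Tra2bKO), were taken after the same stimulation. Tra2b encodes a splicing regulator, and the series' title names an ultraconserved poison exon of this gene. The labels do not say how Tra2b was edited, or whether the libraries of a group came from different mice, so the spread between libraries may be partly technical. The day, the stimulation and the scrambled sequence all separate the controls from the naive libraries and cannot be told apart.

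DNA methylation in mammals sits mostly on CpG dinucleotides and must be copied after each round of replication. UHRF1 recognises hemimethylated CpGs behind the fork and recruits DNMT1, which methylates the new strand, while DNMT3A and DNMT3B place methylation on unmethylated sites. TET1, TET2 and TET3 oxidise 5-methylcytosine, the first step of its removal. Polycomb repressive complex 2 (PRC2) methylates lysine 27 of histone H3: EZH2 is the catalytic subunit, SUZ12 holds the complex together and EED reads the mark. In CD8+ T cells these systems are known to take part in silencing memory-associated genes in effector cells, and loss of Tet2 or Dnmt3a is known to favour memory-like cells.

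The start regions of the 10 genes are shown first, because some held a motif that many DNA replication genes share. RefSeq windows of 300 bases around each annotated start (GRCm38.p6, 15 windows, all 10 genes matched) were searched on both strands for 4 variants of the E2F motif: TTTGGCGC, TTTCCCGC, TTTGCCGC and TTTCGCGC. E2F factors are known to drive genes of S phase. The windows of 4 of the 10 genes held a match (Dnmt1, Uhrf1, Ezh2 and Suz12). Over all 27025 genes the share with a match was 2.6%, and it was 11 of 22 in a list of DNA replication genes. The 5 matches are printed below with their surroundings, 5′ to 3′ on the strand of the gene, with the match in capitals.

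Ezh2, chr6:47595009-47595038, minus strand: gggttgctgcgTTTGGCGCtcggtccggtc

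Dnmt1, chr9:20952824-20952853, minus strand, match read on the other strand: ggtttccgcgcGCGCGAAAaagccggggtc

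Dnmt1, chr9:20952574-20952603, minus strand: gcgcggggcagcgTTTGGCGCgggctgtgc

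Suz12, chr11:79992876-79992905, plus strand: cgacccctcatTTTCCCGCgaattcagttc

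Uhrf1, chr17:56304117-56304146, plus strand: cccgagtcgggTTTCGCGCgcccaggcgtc

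For Suz12 and Uhrf1 the whole stretch of 250 bases before the start is given, since these hold the match and many CpGs, the substrate of the enzymes described here (37 CpGs in Suz12 and 30 in Uhrf1).

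Suz12, chr11:79992856-79993105, plus strand: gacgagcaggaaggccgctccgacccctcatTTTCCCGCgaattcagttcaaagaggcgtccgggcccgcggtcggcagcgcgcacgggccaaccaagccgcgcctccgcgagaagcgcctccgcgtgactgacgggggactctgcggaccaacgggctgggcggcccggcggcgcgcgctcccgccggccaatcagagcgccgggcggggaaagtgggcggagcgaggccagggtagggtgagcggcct

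Uhrf1, chr17:56304063-56304312, plus strand: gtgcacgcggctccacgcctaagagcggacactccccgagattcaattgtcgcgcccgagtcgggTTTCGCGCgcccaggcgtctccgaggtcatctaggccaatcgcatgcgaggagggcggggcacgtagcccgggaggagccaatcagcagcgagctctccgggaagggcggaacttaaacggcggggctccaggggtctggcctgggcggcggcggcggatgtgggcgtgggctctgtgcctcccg

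A match describes letters, not binding, and none was found in the windows of Dnmt3a, Dnmt3b, Tet1, Tet2, Tet3 and Eed.

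Total estimated counts ranged from 68249844 to 93972513 per library, and levels are given as CPM, the count relative to the library's total after scaling by the trimmed mean of M values. Every one of the 10 genes had counts in every library; the smallest was Tet1, with 46 to 1025 counts. Tra2b itself, the labelled target, stood at 248 to 352 CPM (median 286) in the naive and 338 to 526 CPM (median 484) in the control libraries, and at 361 CPM in knockout 1 and 370.5 CPM in knockout 2. Its knockout against control difference of -0.34 on the log2 scale had an adjusted p of 0.0899 in edgeR's quasi-likelihood test, so it did not pass. Control 2, at 338 CPM, was the only control below the knockouts, and the next lowest was control 5, at 440 CPM. The gene count was thus lower in the knockouts than in most controls but does not fully separate the 2 groups. Knockout 2 stood apart in transcript length: genes of at least 5000 nt held 12.0% of its counts, against 8.26% in knockout 1, 7.70 to 8.57% over the controls, and 9.10 to 10.1% at day 0. CD8 T cell markers were abundant throughout, with summed levels of 7812 to 9373 CPM in the naive libraries, 5222 to 6265 CPM in the controls and 4925 and 5667 CPM in the knockouts.

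**Figure D1:**
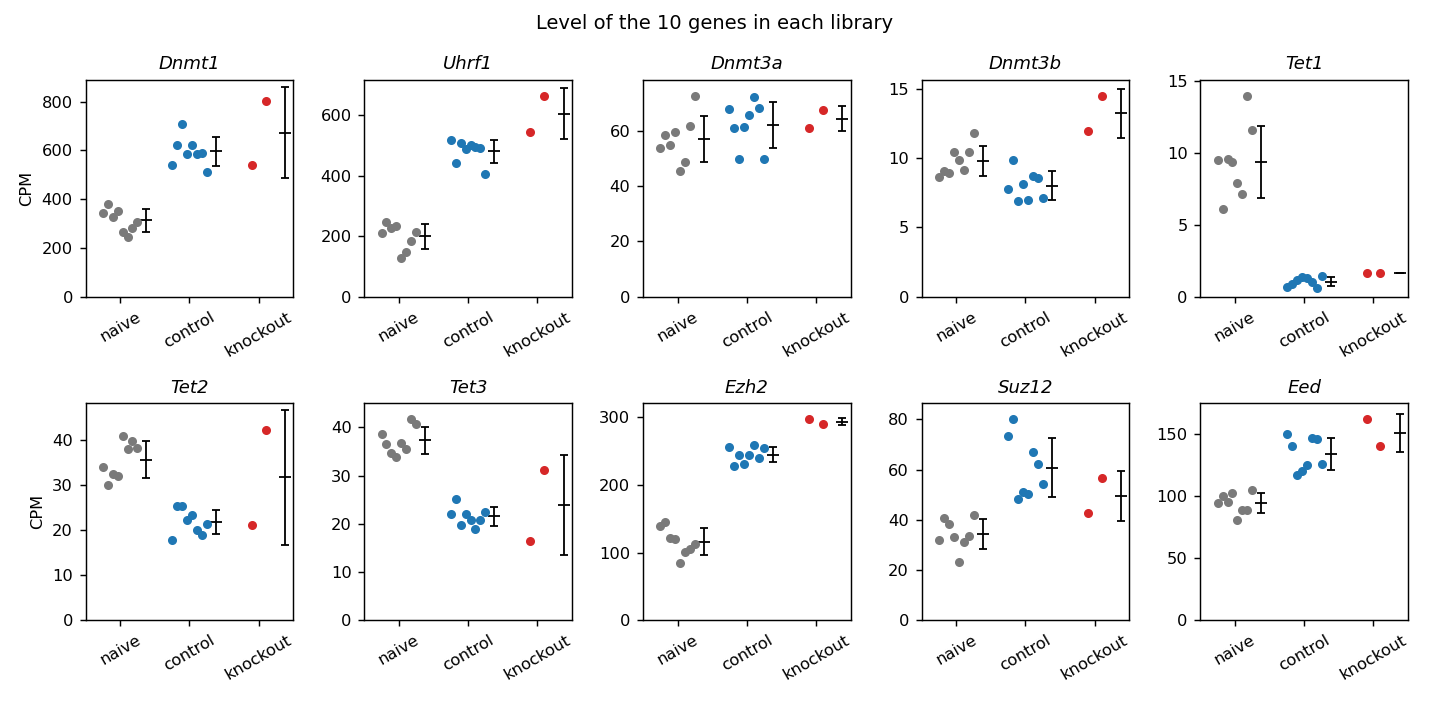
Level of each of the 10 genes in every library, in CPM on a linear axis from 0; points are libraries, and the bar beside each group gives the mean and SD (n = 8 naive, 8 control, 2 knockout). The naive and control points do not overlap for Dnmt1, Uhrf1, Tet1, Tet2, Tet3, Ezh2, Suz12 and Eed, and the 2 knockout libraries lie far apart for Dnmt1, Tet2 and Tet3.

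Between the naive and the control libraries the maintenance methylation pair and all 3 PRC2 genes rose, and all 3 TET genes fell. Of the 10 genes, 5 were higher, 4 were lower and Dnmt3a did not pass the test (edgeR quasi-likelihood test, Benjamini-Hochberg adjusted p under 0.05). This stood against a background of 71.5% of 17078 genes called, 32.5% higher and 39.0% lower, so being called is in itself common here. The levels of the naive and control libraries did not overlap for 8 of the 10 genes, against 42.3% of all genes. The median log2 fold change was 0.31 over the 10 genes and -0.08 over all genes. In bulk RNA, fewer cells of a type and less RNA per cell cannot be told apart.

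The copying of methylation after replication was read from Dnmt1 and Uhrf1, and both rose. Dnmt1 (chr9:20907209-20959888) stood at 245 to 378 CPM (median 316) in the naive and 512 to 707 CPM (median 589) in the control libraries. Every control was above every naive library, and the log2 fold change was 0.93 (SE 0.09, adjusted p = 2.07e-08). Uhrf1 (chr17:56303321-56323486), whose product brings DNMT1 to new DNA, stood at 128 to 247 CPM (median 213) in the naive and 406 to 518 CPM (median 493) in the control libraries. The groups were again separate, at 1.27 (SE 0.11, adjusted p = 1.74e-08), a 2.41-fold difference against 1.9-fold for Dnmt1; the difference between the 2 genes was not tested.

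The de novo enzymes did not share this rise. Dnmt3a (chr12:3806007-3914443) stood at 45.7 to 72.9 CPM (median 56.8) in the naive and 49.9 to 72.5 CPM (median 63.8) in the control libraries. The ranges overlapped almost fully, and its log2 fold change of 0.12 (SE 0.10, adjusted p = 0.267) had a 95% interval of -0.07 to 0.32. With a trend on transcript length and GC content removed from each library, Dnmt3a passed the test at 0.44 (adjusted p = 0.000365), so whether it rose depends on that setting. Dnmt3b (chr2:153649450-153687730) stood at 8.64 to 11.8 CPM (median 9.49) in the naive and 6.89 to 9.88 CPM (median 7.94) in the control libraries. It was lower by a small margin, -0.29 (SE 0.09, adjusted p = 0.0107), and the ranges overlapped.

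All 3 TET genes, which encode the methylcytosine oxidases, fell. Tet1 (chr10:62804570-62908996) had the largest change of the 10 genes: it stood at 6.09 to 14.0 CPM (median 9.42) in the naive and 0.617 to 1.43 CPM (median 1.06) in the control libraries. No control reached the lowest naive library, and the log2 fold change was -3.14 (SE 0.20, adjusted p = 3.41e-10), or 8.79-fold lower. Tet2 (chr3:133463679-133545139) stood at 29.9 to 40.9 CPM (median 36.0) in the naive and 17.8 to 25.3 CPM (median 21.8) in the control libraries, a change of -0.71 (SE 0.08, adjusted p = 4.94e-07). Tet3 (chr6:83362373-83459084) stood at 33.8 to 41.6 CPM (median 36.7) in the naive and 19.0 to 25.2 CPM (median 21.4) in the control libraries, a change of -0.79 (SE 0.07, adjusted p = 6.75e-09). Both were separate between the groups, and the summed level of the 3 genes was 72.5 to 95.3 CPM in the naive and 40.1 to 51.4 CPM in the control libraries.

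The 3 core PRC2 genes rose by different amounts. Ezh2 (chr6:47530139-47595341), the catalytic subunit, stood at 84.5 to 146 CPM (median 116) in the naive and 228 to 259 CPM (median 245) in the control libraries, a change of 1.07 (SE 0.09, adjusted p = 6.56e-09). Suz12 (chr11:79993106-80034123) stood at 23.4 to 41.9 CPM (median 33.3) in the naive and 48.2 to 80.0 CPM (median 58.2) in the control libraries, a change of 0.83 (SE 0.13, adjusted p = 1.42e-05). Its controls spread widely, with controls 1 and 2 at 73.3 and 80.0 CPM, but all stayed above the naive libraries. Eed (chr7:89954654-89980983), which reads the methylated histone, had the smallest rise: it stood at 80.8 to 105 CPM (median 95.1) in the naive and 117 to 150.2 CPM (median 133) in the control libraries, a change of 0.51 (SE 0.07, adjusted p = 3.31e-06). The 5 rises, the falls of the 3 TET genes and the fall of Dnmt3b each kept their direction and their side of the threshold in all of the 25 alternative fits of this comparison.

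Per kilobase of transcript the genes could be ranked. In the controls Uhrf1 was highest at 137 ± 11 CPM per kb (SD, n = 8), followed by Dnmt1 at 112 ± 10.9, Ezh2 at 92.0 ± 4.56 and Eed at 68.1 ± 6.79 CPM per kb. Suz12 came next at 14.2 ± 2.68 CPM per kb, then Dnmt3a at 7.92 ± 1.03, Tet2 at 3.26 ± 0.465, Tet3 at 2.46 ± 0.327 and Dnmt3b at 2.03 ± 0.282. Tet1 closed the list at 0.153 ± 0.0603 CPM per kb. Neighbours whose mean ± SD overlapped were Tet3 and Dnmt3b; all others were apart. In the naive libraries Dnmt1 (59.1 ± 8.45 CPM per kb), Uhrf1 (57.0 ± 12.1), Eed (48.7 ± 4.08) and Ezh2 (43.7 ± 7.46) each overlapped the next in order, as did Dnmt3a (8.71 ± 1.39) and Suz12 (8.21 ± 1.49), and Tet2 (5.87 ± 0.805) and Tet3 (5.12 ± 1.17). Dnmt3b (2.55 ± 0.337) and Tet1 (1.74 ± 0.589 CPM per kb) came last and also overlapped. In the knockouts Uhrf1 (173 ± 23.5, SD of 2 libraries) and Dnmt1 (126 ± 35.3) were again first, and Dnmt3b (3.29 ± 0.378) stood above Tet3 (2.71 ± 0.939), with overlapping spread. Eed stood within the spread of Ezh2 at day 0 and below it in the controls, and Suz12 was the lowest of the PRC2 core per kilobase in every group.

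Genes of DNA replication rose in the same comparison. All 26 replication genes listed were higher in the controls, with a median log2 fold change of 1.19. Their summed level was 3555 to 6369.9 CPM in the naive and 10911 to 12115 CPM in the control libraries. The 2 with the largest rises were Rrm2, a subunit of ribonucleotide reductase, which went from 623 ± 191 to 1776 ± 76.9 CPM (SD, n = 8), and Gins2, a part of the replicative helicase, which went from 36.6 ± 9.45 to 101 ± 7.65 CPM. Within the naive group, naive 5 had the lowest replication sum (3555 CPM) and also the lowest Uhrf1 (128 CPM), Ezh2 (84.5 CPM), Suz12 (23.4 CPM), Eed (80.8 CPM) and Dnmt3a (45.7 CPM). Naive 2 had the highest replication sum (6369.9 CPM) and the highest Dnmt1 (378 CPM), Uhrf1 (247 CPM) and Ezh2 (146 CPM). In the same library Tet1 (6.09 CPM) and Tet2 (29.9 CPM) were at their lowest of the 8 naive libraries. The controls repeated this only in part. Control 3 had the highest replication sum of the 8 (12115 CPM) and the highest Dnmt1 (707 CPM) and Tet2 (25.3 CPM). It also had the lowest Suz12 (48.2 CPM), Eed (117 CPM) and Dnmt3a (49.9 CPM). Control 8 had the lowest replication sum (10911 CPM), Dnmt1 (512 CPM) and Uhrf1 (406 CPM), but its Ezh2 (254 CPM) was above the control median (245 CPM). These ranks describe 8 libraries a group and were not tested.

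Other genes moved with this comparison. Summed B cell markers were at 71.8 to 144 CPM in the naive libraries, 14.5 to 28.8 CPM in the controls and 31.5 and 33.5 CPM in the knockouts, and 6 of 8 tested markers were lower in the controls, with Ebf1 at 0 in both knockouts. Dendritic and myeloid markers summed to 107 to 201 CPM in the naive libraries, 34.5 to 59.4 CPM in the controls and 79.6 and 95.1 CPM in the knockouts, with 11 of 11 lower and Siglech at 0 in every control and knockout library. NK cell markers summed to 323 to 475 CPM in the naive libraries, 134 to 412 CPM in the controls and 484 and 555 CPM in the knockouts, with 7 of 8 lower and Klra8 at 0 in every control. Klrk1 and Eomes, which activated or memory CD8+ T cells also express, made up most of that sum (219 to 359 CPM in the naive, 121 to 346 CPM in the control and 423 and 493 CPM in the knockout libraries for Klrk1). Of the CD8 T cell markers, 8 of 9 were lower as well, led by Cd8a at -1.15, SE 0.06 on the log2 scale. The part of these cells in the changes of the 10 genes was not tested.

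The partners of these enzymes went both ways, in a comparison where 71.5% of all genes were called, 32.5% higher and 39.0% lower. Of 12 tested partners and readers of DNA methylation, 4 were higher and 2 lower (median log2 fold change 0.14). The rises were led by Cdca7 (1.47, SE 0.11 on the log2 scale) and Hells (1.29, SE 0.11), which together form a chromatin remodeller needed for maintenance methylation. Zbtb38, which encodes a methyl-CpG binding protein, was lower (-0.83, SE 0.11). Of 10 cofactors of cytosine demethylation, 1 was higher and 6 lower (median -0.35). Tdg, the glycosylase that removes oxidised cytosines, was the one that rose (0.93, SE 0.08). Cxxc5, which encodes a CXXC protein known to bind TET2, had the largest fall (-3.06, SE 0.36), from 9.43 ± 2.83 to 1.10 ± 0.723 CPM, and Idh2, which makes the TET cosubstrate 2-oxoglutarate, fell by 1.34 on the log2 scale. In the S-adenosylmethionine cycle, which supplies the methyl donor, 2 of 7 genes were higher and 2 lower (median 0.09). Ahcy, which clears the by-product S-adenosylhomocysteine, rose (1.15, SE 0.08), as did Mtap (0.81, SE 0.07), while Mat2b (-0.53, SE 0.06) fell.

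All 11 tested PRC2 partners changed, 6 up and 5 down (median 0.20). Phf19, a Polycomb-like subunit, rose from 16.4 ± 3.83 to 33.8 ± 3.62 CPM (1.04, SE 0.13), and Epop, a subunit of the same subtype of complex, rose by 0.76. Phf1, the paralogue of Phf19, fell from 55.9 ± 8.59 to 8.31 ± 1.96 CPM (-2.75, SE 0.14). Ezh1, the alternative catalytic subunit known from resting cells, fell from 92.9 ± 19.6 to 38.7 ± 4.74 CPM (-1.26, SE 0.11). Ezh1 therefore fell in the comparison in which Ezh2 rose. Of the 3 H3K27 demethylase genes none was higher and 2 were lower, Kdm6a (-0.44, SE 0.10) and Kdm6b (-1.34, SE 0.18). Among 21 PRC1 subunits, 5 were higher and 10 lower (median -0.29), near the 71.5% called over all genes. Of the chromobox genes named by size of change, Cbx2 (0.77, SE 0.09) and Cbx6 (0.48, SE 0.08) rose and Cbx7 (-1.17, SE 0.10) fell, from 49.5 ± 5.48 to 21.9 ± 3.90 CPM.

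**Figure D2:**
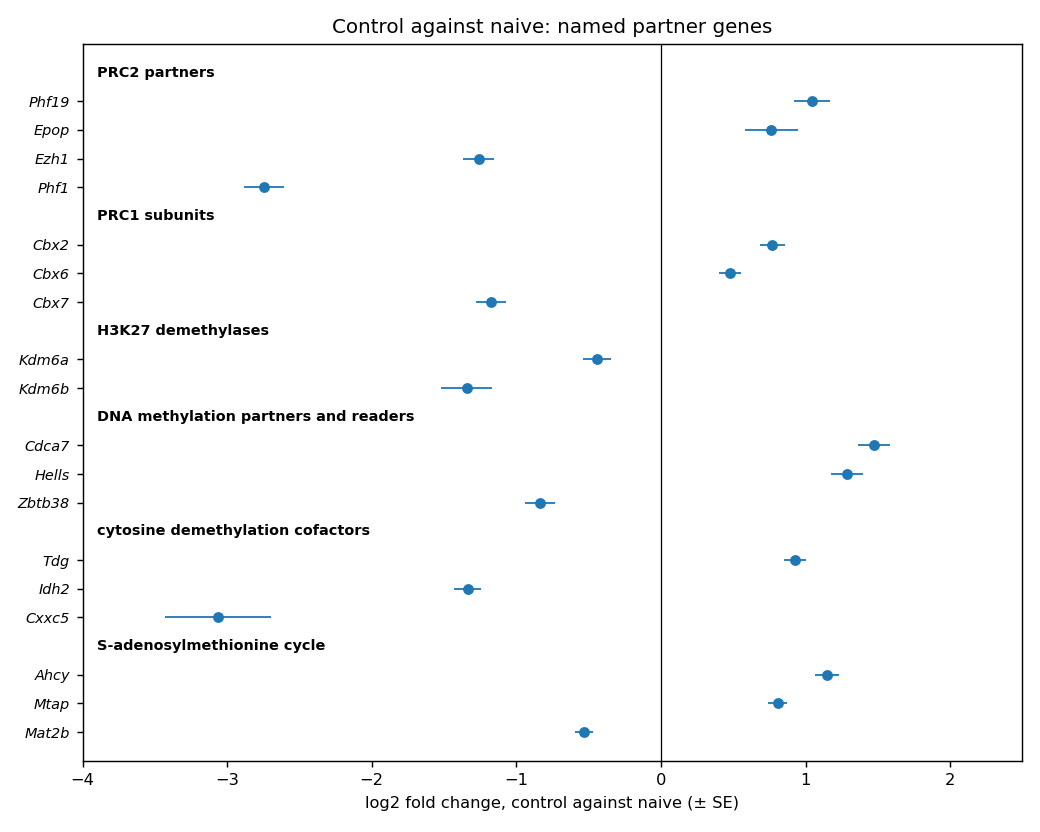
Log2 fold change between control and naive libraries for the 18 genes named from 6 lists around the 10 enzymes, grouped by list; points are edgeR estimates and bars their SE, and all 18 passed an adjusted p of 0.05. Phf1, Ezh1, Cxxc5 and Cbx7 lie to the left of 0 and Phf19, Cdca7, Hells and Ahcy to the right.

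Lists of naive and memory T cell genes and of germline genes were also read. Methylation of these genes was not measured, and a link between their levels and the 10 enzymes was not tested. Of 12 genes of naive and memory T cells, 10 were lower in the controls and none was higher (median -1.71). Bach2, a repressor of effector genes, fell by 3.20 on the log2 scale and Tcf7 by 1.58. Of 11 germline genes, known to be silenced by promoter methylation, 1 had enough counts to be tested, Tex11, at 2.60 (SE 0.61, adjusted p = 0.000894); it is named because no other was tested, after its value was seen. The germline genes summed to 0.0798 to 0.770 CPM in the naive, 0.803 to 3.01 CPM in the control and 0.615 and 1.23 CPM in the knockout libraries.

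Between the knockout and the control libraries 3 of the 10 genes differed. Dnmt3b, Uhrf1 and Ezh2 were higher and no gene of the 10 was lower, against 7.62% of 18651 genes called higher and 7.24% called lower. Dnmt3b stood at 12.0 CPM in knockout 1 and 14.5 CPM in knockout 2, against 6.89 to 9.88 CPM (median 7.94) in the controls, a change of 0.73 (SE 0.15, adjusted p = 0.00785). Uhrf1 stood at 546 CPM in knockout 1 and 664 CPM in knockout 2, a change of 0.34 (SE 0.09, adjusted p = 0.0245), and Ezh2 at 297 CPM in knockout 1 and 289.5 CPM in knockout 2, a change of 0.27 (SE 0.06, adjusted p = 0.0113). For these 3 genes and for Tet1 (1.64 CPM in knockout 1 and 1.64 CPM in knockout 2) both knockout libraries lay above all controls, 4 of 10 genes against 23.8% of all genes. Dnmt3b was thus the only one of the 10 called lower in the controls than in the naive libraries and higher in the knockouts than in both.

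Each knockout library alone gave another set. With controls 3 to 8 only, the same 3 genes passed, Dnmt3b at 0.79 (adjusted p = 0.00561), Uhrf1 at 0.34 (adjusted p = 0.0301) and Ezh2 at 0.27 (adjusted p = 0.0161). Without knockout 2, none of the 10 genes was called: Dnmt3b stood at 0.59 (adjusted p = 0.141), Uhrf1 at 0.20 (adjusted p = 0.391) and Ezh2 at 0.29 (adjusted p = 0.0737). Without knockout 1, 5 were called higher, among them Dnmt1 at 0.43 (adjusted p = 0.0434), Tet2 at 0.95 (adjusted p = 0.00401) and Tet3 at 0.53 (adjusted p = 0.0348), while Ezh2 was lost at 0.24 (adjusted p = 0.0762). With all 3 groups in 1 fit, Uhrf1 had an adjusted p of 0.218 and Ezh2 of 0.202, so both were lost, while Tet2 passed with an adjusted p of 0.0458. With the trend on length and GC content removed, the same 3 genes passed, Dnmt3b at 0.66 (adjusted p = 0.00942), Uhrf1 at 0.32 (adjusted p = 0.0249) and Ezh2 at 0.23 (adjusted p = 0.0136). A single library left in a group is assumed to vary as the others do.

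The 7 other genes did not pass the test. Dnmt1 stood at 541 CPM in knockout 1 and 804 CPM in knockout 2, Tet2 at 21.1 CPM in knockout 1 and 42.2 CPM in knockout 2 and Tet3 at 16.5 CPM in knockout 1 and 31.2 CPM in knockout 2. For each of these 3, knockout 1 lay within or below the control range and knockout 2 above it. Suz12 stood at 42.5 CPM in knockout 1 and 56.5 CPM in knockout 2, knockout 1 below and knockout 2 within the controls, with a log2 difference of -0.29 and a 95% interval of -0.67 to 0.09. Dnmt3a (61.4 CPM in knockout 1 and 67.8 CPM in knockout 2) lay inside the control range in both, at 0.06 with an interval of -0.21 to 0.32. Eed was at 162 CPM in knockout 1 and 140.5 CPM in knockout 2, with an interval of -0.03 to 0.39. Tet1 differed by 0.64 (SE 0.31), with an interval of 0.04 to 1.25. That interval leaves out 0, although the unadjusted p of the edgeR quasi-likelihood test was 0.0595. The 95% intervals given for log2 differences are normal approximations from the SE and can be too narrow with few libraries. An interval that holds 0 does not show that a gene was the same in both groups.

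The 2 knockout libraries differed from each other along transcript length. The ratio of knockout 2 to knockout 1 was 0.867 for Eed, with a mean transcript length of 2028 nt, and 0.976 for Ezh2. It was 1.22 for Uhrf1, 1.21 for Dnmt3b, 1.33 for Suz12 and 1.49 for Dnmt1. It reached 2 for Tet2, at 8490 nt, and 1.89 for Tet3. Dnmt3a (1.10) and Tet1 (0.996), both as long or longer, were near 1. Over all genes the median ratio was 0.911 for 3350 genes under 2000 nt and 1.52 for 604 genes of 6000 to 8000 nt, and 1.44 for the 302 genes of 8000 nt or more. With a trend on length and GC content removed from each library, the knockout against control differences of Tet2, Tet3 and Dnmt1 were 0.14, -0.16 and -0.01 on the log2 scale, against 0.54, 0.15 and 0.18 without that step.

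**Figure D3:**
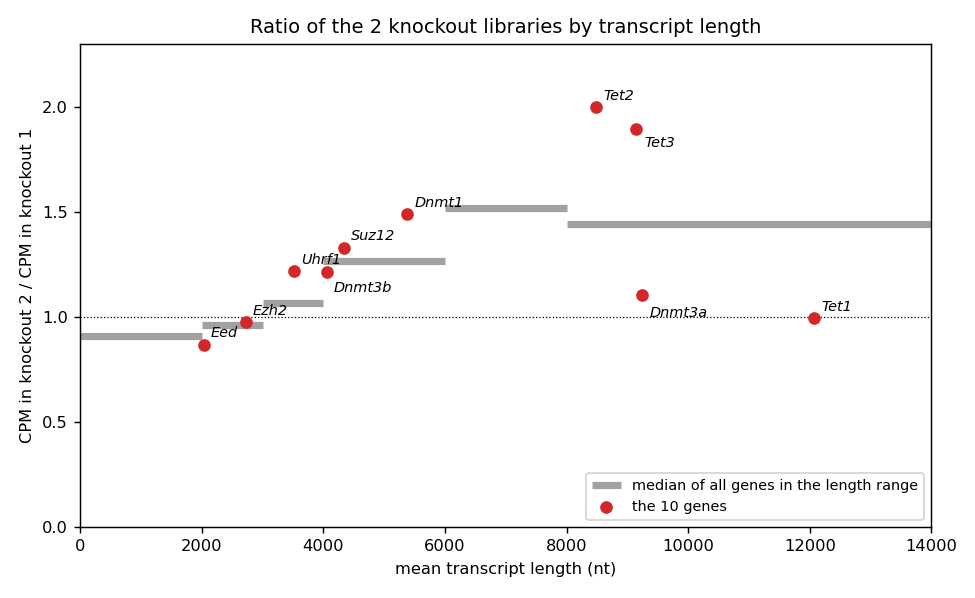
Ratio of the CPM in knockout 2 to the CPM in knockout 1 (linear axis from 0) against mean transcript length in nt; red points are the 10 genes and grey bars the median over all genes of each length range, the last range being open to the right. The grey medians rise from below 1 for short transcripts, and of the 10 genes Tet2 and Tet3 lie highest and Eed lowest.

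Partner genes were called in both directions between knockout and control libraries, where 14.9% of all genes tested were called. They included 4 of 10 demethylation cofactors and 3 of 21 PRC1 subunits. Hells was higher in the knockouts (0.45, SE 0.08; adjusted p = 0.00298) and Uhrf2, the paralogue of Uhrf1, lower (-0.43, SE 0.08; adjusted p = 0.00588), 2 of 12 genes in all. Hells did not pass without knockout 2, at 0.39 (adjusted p = 0.0677), or after removal of the length and GC trend, at 0.06 (adjusted p = 0.763). Uhrf2 passed in both, at -0.46 (adjusted p = 0.0490) and -0.50 (adjusted p = 0.00131). With that trend removed Lcorl, Pcgf3, Smug1, Gadd45g and Idh2, named below, did not pass either. Phf19 was lower, 23.0 ± 1.35 CPM against 33.8 ± 3.62 CPM in the controls, and Lcorl higher, the only 2 of 11 PRC2 partners called; without knockout 2 Phf19 stood at -0.48 (adjusted p = 0.146) and Lcorl at 0.38 (adjusted p = 0.376). Kdm6a was higher at 0.96, SE 0.16, and without knockout 2 at 0.49 (adjusted p = 0.0924). Of 10 cofactors of demethylation, Ogt and Smug1 were higher and Gadd45g and Idh2 lower, and none was called without knockout 2. Mtap, Pcgf3, Bcor and Rybp also passed with both libraries and did not without knockout 2. Of the 26 replication genes 1 was higher and 2 were lower; Rrm2 was one of these, at -0.52, SE 0.07, and without knockout 2 at -0.43 (adjusted p = 0.0163). Among the naive and memory genes Bcl2, Tcf7 and Ccr7 were higher and Il7r lower, none of them called without knockout 2. The list of CD4 T cell and red cell markers summed to 5.44 to 27.9 CPM in the naive libraries, 8.88 to 30.1 CPM in the controls and 11.8 and 83.2 CPM in the knockouts. In that list 3 of 7 genes were called higher in the knockouts, the red cell genes Hbb-bs, Hba-a1 and Alas2, and 1 lower, Zbtb7b. None of the 3 passed without knockout 1, and none without knockout 2. Hbb-bs stood at 4.18 and 39.8 CPM, Hba-a1 at 3.62 and 36.2 CPM and Alas2 at 0.187 and 2.53 CPM, and the lower value of each lies within the controls, which reached 5.54, 5.08 and 0.304 CPM. The summed B cell, dendritic and NK cell markers given above were higher in both knockouts than in every control, although none of the 8, 11 and 6 genes tested in them passed. Their part in the results was not tested.

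Knockout against naive libraries repeated the direction of the control comparison for most genes, with which it shares the naive libraries. In this comparison 6 genes were higher and 2 lower, against 44.7% of 19776 genes called, 21.1% higher and 23.6% lower. The levels did not overlap for 8 of the 10 genes, against 46.4% of all. The log2 fold changes were 1.63 for Uhrf1, 1.37 for Ezh2, 1.13 for Dnmt1, 0.71 for Eed, 0.56 for Suz12 and 0.47 for Dnmt3b. Tet1 was lower at -2.47 (SE 0.30, adjusted p = 4.50e-05) and Tet3 at -0.62 (SE 0.18, adjusted p = 0.0135). Tet2 did not pass, at -0.14 (SE 0.20, adjusted p = 0.593), and its sign changed with the knockout library left out: it stood at -0.70 (adjusted p = 0.0104) without knockout 2 and at 0.25 (adjusted p = 0.306) without knockout 1. Tet3 was lost without knockout 1, at -0.25 (adjusted p = 0.190). Suz12 and Dnmt3b were lost without knockout 2, at 0.36 (adjusted p = 0.272) and 0.34 (adjusted p = 0.192). They were also lost when only library totals scaled the counts, at 0.45 (adjusted p = 0.0651) and 0.35 (adjusted p = 0.0658). After removal of the length and GC trend Suz12 was lost, at 0.35 (adjusted p = 0.154), and Tet2 passed, at -0.37 (adjusted p = 0.0388).

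**Figure D4:**
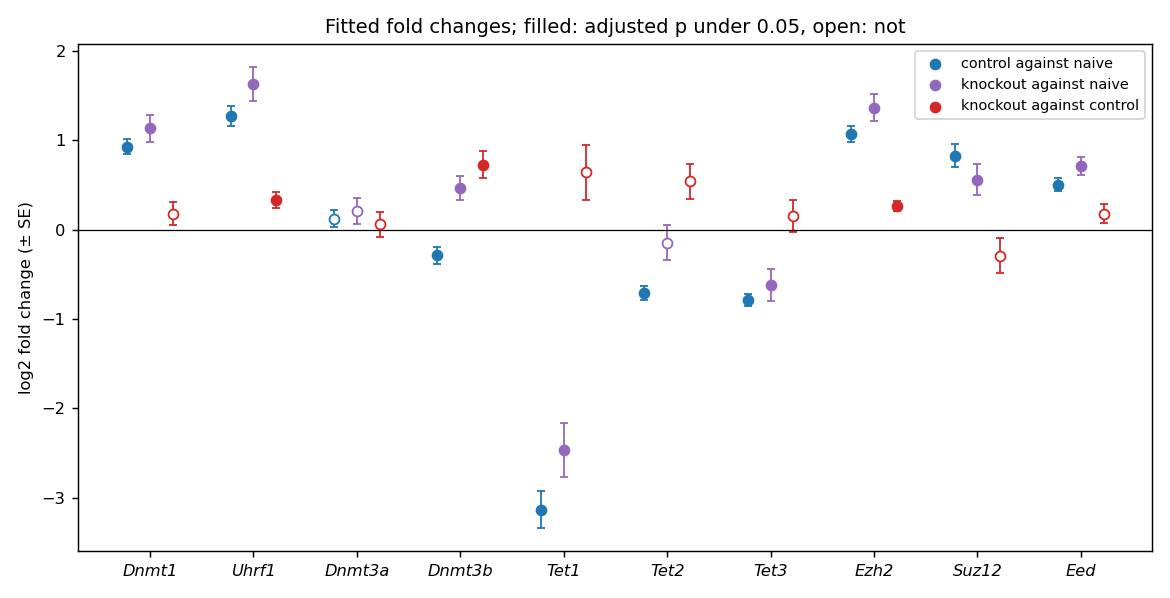
Log2 fold change with its SE from edgeR for each of the 10 genes in the 3 comparisons, which share groups and are not independent; filled points passed an adjusted p of 0.05 and open points did not. The control (blue) and knockout (purple) libraries differ from naive in the same direction except for Dnmt3b, and Tet1 has the largest fall in both.

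Transcripts annotated as holding a retained intron made up less of these genes in the controls than in the naive libraries. GENCODE lists such transcripts without a coding sequence. For Dnmt3a they held 5.86 to 9.16% (median 7.59%) of the gene's counts in the naive and 1.02 to 3.60% (median 1.96%) in the control libraries, with no overlap (exact two-sided permutation test, unadjusted p = 0.000155, the smallest that 8 against 8 libraries allow). The knockouts held 1.51 and 1.73%. Most of this was Dnmt3a-202, whose intron sequence lies at chr12:3866253-3867484, while Dnmt3a-201, the long protein-coding transcript, went from 90.4 ± 1.23 to 96.4 ± 1.60% (SD, n = 8). For Tet2 the share was 10.4 to 16.1% (median 12.7%) in the naive and 5.78 to 10.9% (median 7.59%) in the control libraries (exact permutation test, unadjusted p = 0.000466). For Ezh2 it was 1.38 to 2.21% (median 1.91%) and 0.492 to 1.63% (median 1.23%) (exact permutation test, unadjusted p = 0.000311). For Eed it was 1.29 to 2.88% (median 1.68%) and 0.703 to 1.36% (median 0.895%) (exact permutation test, unadjusted p = 0.000311). Tet2, Ezh2 and Eed each overlapped slightly between the groups. In the knockouts the Tet2 share stood at 11.6% in knockout 1 and 4.05% in knockout 2. Of the 9 genes with such transcripts, all but Dnmt3b and Uhrf1 had an unadjusted p under 0.05, each lower in the controls, and 1 (Dnmt3a) had no overlap. The share of all genes with such a p was not computed, so only the count without overlap can be set against a background. Over all 6031 genes with such transcripts and a mean of at least 4 CPM, 20.4% were lower in the controls with no overlap and 0.531% were higher. Retained-intron transcripts held 5.58 ± 0.328% of all counts in the naive libraries, 3.56 ± 0.230% in the controls and 3.65 and 3.66% in the knockouts, so the same direction was seen over all genes. Between knockout and naive libraries 2 of the 9 genes, Dnmt3a and Ezh2, were lower with no overlap and none was higher, against 33.1% lower and 2.67% higher over all genes. Between knockout and control libraries no gene of the 9 was apart, against 2.69% lower and 7.59% higher over all genes.

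Optional exon sequences inside the coding region were then compared, because TRA2B is a splicing regulator. Of 23 alternative segments examined in the 10 genes, 6 that lie in coding sequence of Tet2, Uhrf1, Ezh2, Dnmt3b and Suz12 are printed, chosen after their values were seen. They are given as transcribed, with GRCm38 coordinates. The deposited files hold transcript counts and no reads, so a share is the count of transcripts with the segment over those with and without it.

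Tet2, chr3:133479342-133479365, minus strand, 24 nt: gaagaaaaagcaatcaccacccag

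Uhrf1, chr17:56313041-56313064, plus strand, 24 nt: cccctcctgccctccggaacacag

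Ezh2, chr6:47576536-47576562, minus strand, 27 nt: gtgagctcattgcgcgggactagggag

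Dnmt3b, chr2:153683608-153683677, plus strand, 70 nt: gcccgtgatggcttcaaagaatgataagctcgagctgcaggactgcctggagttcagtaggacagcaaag

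Dnmt3b, chr2:153684359-153684477, plus strand, 119 nt: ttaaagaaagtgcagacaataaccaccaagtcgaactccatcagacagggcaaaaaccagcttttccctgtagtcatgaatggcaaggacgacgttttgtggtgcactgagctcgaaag

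Suz12, chr11:79999057-79999125, plus strand, 69 nt: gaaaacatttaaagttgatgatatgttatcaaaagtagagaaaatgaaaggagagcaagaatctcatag

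The Tet2 stretch was in 7.11 to 78.6% (median 9.23%) of the transcripts in the naive and 4.14 to 7.42% (median 5.21%) in the control libraries (exact two-sided permutation test, unadjusted p = 0.000311), and in 11.2% in knockout 1 and 2.59% in knockout 2. The controls were lower, with slight overlap, and the naive range rests on naive 3, the only naive library above 11.1%. A retained-intron transcript also holds this stretch, and the coding transcript that holds it had no counts in 12 libraries. Intron segments counted from the retained-intron transcript alone were at 7.11 to 11.1% in the naive and 3.98 to 7.42% in the control libraries. The lower share thus mostly repeats the retained-intron result above, and inclusion in coding transcripts alone was not tested. The Uhrf1 stretch was in 59.9 to 72.7% (median 67.3%) of the transcripts in the naive and 56.7 to 64.9% (median 61.2%) in the control libraries (exact two-sided permutation test, unadjusted p = 0.00793), and in 59.1% in knockout 1 and 63.2% in knockout 2. The Ezh2 stretch was in 55.8 to 67.1% (median 63.3%) and 58.4 to 71.5% (median 68.0%) (exact permutation test, unadjusted p = 0.0371), and the knockouts fell on either side, at 58.0% in knockout 1 and 76.6% in knockout 2. The groups overlapped for both. The 2 Dnmt3b exons are skipped together in the annotation, and transcripts without them are known to encode catalytically inactive forms. They were included in 6.67 to 57.4% (median 43.5%) of transcripts in the naive and 10.1 to 53.4% (median 38.5%) in the control libraries. The knockouts had 61.3% in knockout 1 and 56.1% in knockout 2, both above every control, but the exact two-sided permutation test gave p = 0.0889, where 2 against 8 libraries allow no less than 0.0222. The Suz12 exon ranged over 30.3 to 100% (median 84.2%) in the naive and 37.9 to 100% (median 82.2%) in the control libraries and was at 73.5% in knockout 1 and 21.2% in knockout 2. Its range within the naive and within the control group was wider than the distance between any pair of group means. Over the 23 segments the smallest unadjusted p between knockout and control libraries was that of the Dnmt3b pair.

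A test of transcript usage over all genes called up to 2 of the 10 in each comparison, and its calls depended on the method. Between control and naive libraries it called Tet3 (adjusted p = 0.000160) and Eed (adjusted p = 0.0419; edgeR diffSpliceDGE with Simes p-values), against 8.75% of genes. The Tet3 call came from Tet3-201, a non-coding transcript, with 1.57 to 26.1% of the gene's counts in the naive and 0 to 1.5% in the control libraries. Between knockout and control libraries it called Dnmt3a (adjusted p = 0.0250), against 1.7% of genes, from Dnmt3a-205, which had no counts in either knockout and 0 to 125 counts in the controls. Between knockout and naive libraries it called Dnmt3a (adjusted p = 0.00593) and Eed (adjusted p = 0.000299), against 3.42%. In the first comparison, a minimum of 10 counts also called Dnmt3a (adjusted p = 6.48e-06) and Dnmt1 (adjusted p = 0.0222), and limma voom also called Dnmt3a (adjusted p = 0.00213) and Tet2 (adjusted p = 0.0108). The Eed call of that comparison was lost without any 1 of 14 libraries, all but naive 2 and control 4. The Dnmt3a call between knockout and control libraries was lost without control 4, control 5 or either knockout, and under limma voom (adjusted p = 0.727) and with a minimum of 10 counts. In the third comparison Dnmt3a was lost without either knockout and Eed without knockout 2. These calls rest on scarce transcripts, and on simulated data the test recovered 8.5, 0.5 and 3% of 200 genes with a transcript changed 4-fold in the 3 comparisons, with 28, 29 and 64 false calls. Under the minimum of 10 counts the first comparison recovered 61.0% (26 false calls), and those with the knockouts 1.5 and 3.50%, so a gene without a call is not shown to keep its usage.

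**Figure D5:**
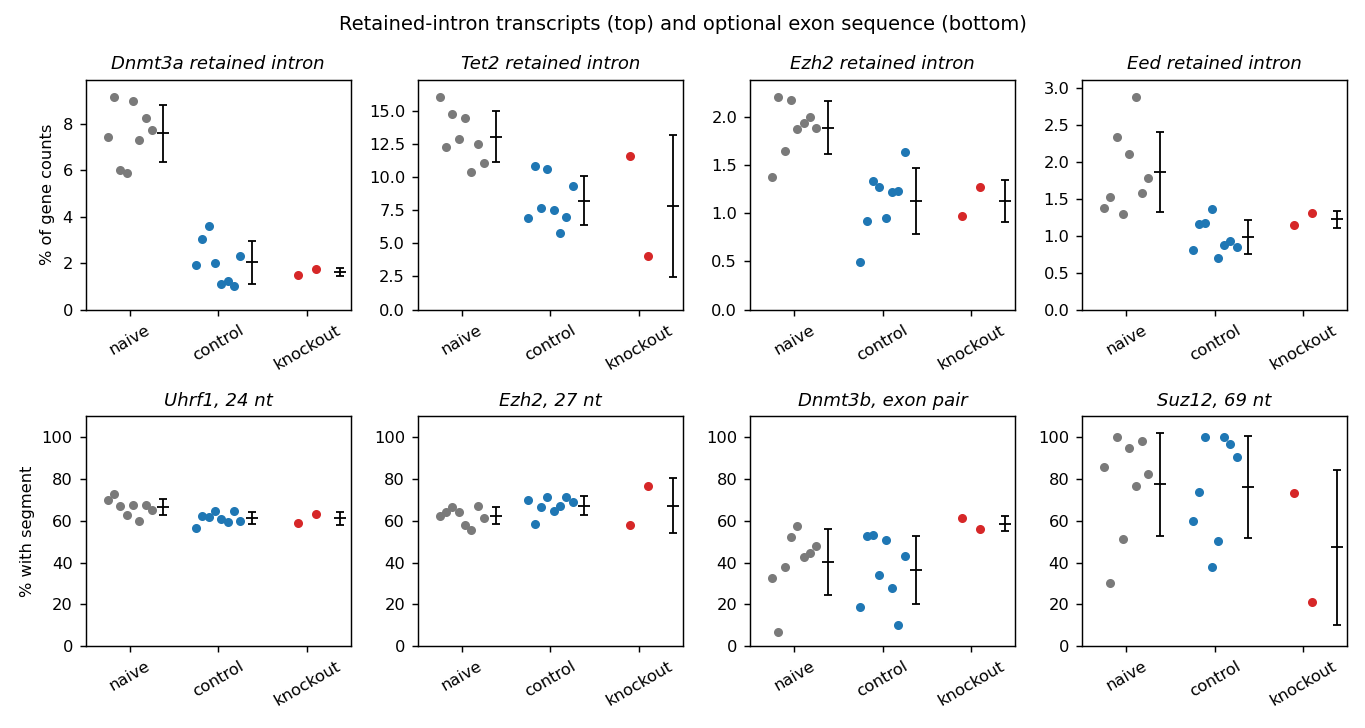
Top, retained-intron transcripts as a percentage of the counts of Dnmt3a, Tet2, Ezh2 and Eed; bottom, transcripts that hold an optional coding segment as a percentage of those that hold or skip it. Points are libraries and bars the mean and SD (n = 8 naive, 8 control, 2 knockout). For Dnmt3a the naive points lie above all control and knockout points, which overlap each other. Suz12 spreads widely within each group.

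The genes whose pattern over all 18 libraries was closest to each of the 10 were found by the root mean square difference of centred log2 CPM, among 7120 protein-coding genes. Uhrf1 lay nearest to Hells, Dtl and Chek1 (0.0996 to 0.141 on the log2 scale), and Ezh2 to Smc2, Nap1l1 and Mcm3 (0.0820 to 0.0994). Hells is the remodeller partner described above, Mcm3 a part of the replicative helicase and Smc2 a condensin subunit. Dnmt1 lay nearest to Hjurp, Cdc27 and Abcb1b (0.0887 to 0.0965), Eed to Adsl, Alg9 and Psmc3 (0.0914 to 0.1) and Suz12 to Maz, Pcbp1 and Akt1 (0.130 to 0.145). Tet2 lay nearest to Vps13b, Akap13 and Tnrc18 (0.111 to 0.131) and Tet3 to Baz2a, Nsd3 and Zfp592 (0.114 to 0.135). For Dnmt3a they were Scaf11, Slc30a5 and Dot1l (0.107 to 0.143), and for Dnmt3b Arap2, Otud4 and Zfp664 (0.133 to 0.152). Tet1 had no gene as close: its nearest were Pdcd4, Plcb2 and Rgs10 (0.318 to 0.335). Among the 10 themselves the closest pairs were Uhrf1 with Ezh2 (0.179), Dnmt1 with Ezh2 (0.192) and Tet2 with Tet3 (0.202).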

How the data were processed

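The authors deposited estimated counts per gene and per transcript, written as whole numbers. The tools named in the submitters' processing notes include StringTie 2.1.0, STAR 2.7.1a and DESeq2 1.30.1; both mm39 and mm10 appear there, without a role. Per the labels' protocols, RNA came from a QIAGEN miRNeasy Micro kit and a SMARTer polyA kit, and whether counting used strand is not given in the sources used here. All 55536 Ensembl genes are in GENCODE M21 (GRCm38), and each equals the sum of its transcripts. Another 26248 of 81881 rows name no gene (0.0513 to 0.132% of counts) and were left out.

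The 10 genes and all lists were chosen with earlier results of these data known. In R 4.3.3, edgeR 4.0.16 filtered genes with filterByExpr (minimum count 10), scaled them by TMM within each comparison and tested them with a robust quasi-likelihood fit (prior count 2). P-values were Benjamini-Hochberg adjusted over all genes tested. Transcript usage was tested with diffSpliceDGE. For shares of segments and retained introns, exact permutation tests (two-sided, unadjusted) were used. With 8 against 8 libraries the smallest p is 0.000155. Alternatives used DESeq2 1.42.0, limma 3.58.1 and other filters, scalings and library sets. Tables were handled in Python 3.11.15. On simulated data the gene test recovered 93% of 2-fold changes for control against naive, 76% for knockout against control and 72% for knockout against naive; of 1.5-fold changes it recovered 82, 34 and 26%.

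From each list, and per comparison, up to 4 called genes were named, the 2 that rose most and the 2 that fell most, where the mean log2 CPM reached 2. Of the markers, the 3 with the highest level could be named. For nearest genes that mean had to reach 4. Transcripts needed 5% of their gene in a group. A few list genes picked by this rule are not reported here.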

Additional observations from a re-analysis of the deposited data

Results flagged for a closer look

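Within groups, 4 of 65 sets of values held 1 library far from the others of its group, by Dixon's criterion for 8 values. Chance alone flags about 1 in 20 such sets. All 4 were shares of alternative segments of the TET genes. The 96-nt coding segment of Tet1 was in 62.5% of transcripts in control 7, where the group's few Tet1 counts limit the precision of the share. The 24-nt segment of Tet2 was in 78.6% in naive 3. The 179-nt segment that marks Tet3-201 was in 26.9% in naive 8. The 126-nt segment that Tet3-203 lacks was in 52.4% in naive 2.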

How the results depend on the processing

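Between control and naive libraries, 25 alternatives of the gene test left the same 5 of the 10 genes higher and 4 lower. With the trend on length and GC content removed Dnmt3a passed as well, so 6 were higher there. Without 1 library 5463 to 5686 genes were higher and 6383 to 6651 lower. Other scalings moved the median of all genes from -0.08 to -0.18 (library totals) and -0.15 (trend on length and GC content removed), and for knockout against naive from -0.08 to -0.19 and -0.16. Usage calls depended on the method. For control against naive (751 genes and 2 of the 10) limma voom called 3632 and 4, a minimum of 10 counts 2624 and 4, controls 3 to 8 only 441 and 1, and leaving out 1 library 510 to 660 and 1 to 3. For knockout against control (164 and 1) limma voom called 880 genes, a minimum of 10 counts 0 of the 10, and leaving out 1 library 150 to 215 and 0 to 1. For knockout against naive (346 and 2) limma voom called 2057 genes, a minimum of 10 counts 1 of the 10, and leaving out 1 library 292 to 359 and 0 to 2.

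In the knockout against control gene test (1421 genes higher, 1351 lower) voom with quality weights called 694 lower. Leaving out 1 library gave 304 to 1459 higher and 347 to 1406 lower, with 0 to 5 of the 10 genes higher and 0 lower throughout; the lowest counts came without knockout 2. For knockout against naive (4177 higher, 4660 lower) the ranges were 3093 to 4189, 3673 to 4935, and 4 to 6 and 1 to 3 of the 10 genes. Signs that turned were those of genes that had not passed. Between knockout and control libraries Dnmt1 stood at -0.0126 with the trend removed, Dnmt3a at -0.21 and Tet3 at -0.16. Without knockout 2 and without knockout 1 respectively, Dnmt1 stood at -0.12 and 0.43, Dnmt3a at -0.00472 and 0.12, Tet2 at -0.0296 and 0.95, and Tet3 at -0.37 and 0.53. For knockout against naive, Tet2 stood at -0.70 and 0.25.

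The labels' replicate numbers did not pair the samples: correlations of same-numbered control and naive libraries ran from -0.025 to 0.032, and own numbers gave the highest value for 1 of 8. With the number as a block, knockout against control called 0 genes higher and 0 lower (0 of the 10; Dnmt3a at -0.00986, Tet3 at -0.0592) and 99 genes for usage (0 of the 10). For knockout against naive the block gave 1177 higher, 2145 lower (1 of the 10 lower) and 191 genes for usage (1 of the 10). For control against naive it left 5 of the 10 genes higher and 4 lower. Only replicate numbers 1 and 2 occur among the knockouts, and a block that holds 1 library does not inform the difference between groups. The block fits with the knockouts therefore rest on few libraries and cannot decide whether the calls hold. The cause of these changes was not tested. Depth limits the shares of transcripts: those of Tet1 after stimulation and of scarce transcripts rest on few counts.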
